A study of Homo sapiens with 9 samples.

Results

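The genes described here are the regulator pair of the cellular antioxidant response, NFE2L2 and KEAP1, and 6 genes that the transcription factor NRF2 is known to drive, NQO1, HMOX1, GCLC, GCLM, TXNRD1 and SRXN1. They were chosen by name, with earlier results of these data known. Of the 8, 7 have a row among the 22290 genes of the deposited table. SRXN1, which encodes the enzyme that reactivates overoxidised peroxiredoxins, was not analysed here for its expression.

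RNA was sequenced from 9 libraries of a human line labelled neuroblastoma, which the study's methods give as IMR-32. IMR-32 is an established neuroblastoma line whose textbook feature is amplification of MYCN. There were 3 libraries of unmodified parental cells (wild type), 3 of cells labelled as a knockdown (KD) of TRAP1, the mitochondrial relative of the chaperone HSP90, and 3 of cells labelled as overexpressing (OE) TRAP1. The study asked how the level of TRAP1 alters cellular networks, chiefly those of energy metabolism. All cells were grown in DMEM with fetal bovine serum, and the KD and OE cells had been made in earlier work, by means not given in the sources used here.

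Levels are regularized log2 values (rlog), which are scaled for library size and pulled toward the mean of each gene, more strongly for genes with few reads. A difference is therefore a difference in rlog between group means, and no linear fold was derived from it. Such values do not show how deeply each library was sequenced. Each difference was tested with limma over all 22290 genes, and a gene was called where its Benjamini-Hochberg adjusted p was under 0.05. The p-values measure only the spread between these libraries, which may be technical, since no source says that they came from separate cultures.

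TRAP1 itself was measured first, because it checks the labels. Its rlog level was 10.67, 10.66 and 10.65 in the parental libraries, 10.79, 10.79 and 10.83 in those labelled KD, and 10.67, 10.63 and 10.74 in those labelled OE. The 3 libraries labelled KD thus lay above all 3 parental libraries and above all 3 labelled OE. Those labelled OE overlapped the parental ones. The difference was 0.14 for KD minus parental (standard error 0.025, adjusted p = 1.8e-05 from limma), against the direction of the label. For OE minus KD the difference was -0.12 (adjusted p = 1.5e-04 from limma), also against the direction of the labels. For OE minus parental it was 0.018 (95% interval -0.033 to 0.069, adjusted p = 0.643 from limma). It was called in OE (0.064, adjusted p = 0.0344 from limma) only after the median of those genes in each 20-Mb block whose rlog averaged 8 or more was removed, a step chosen after seeing the data, whereas with block medians of all genes it was 0.036 and not called (adjusted p = 0.279 from limma). It was -0.012 without OE replicate 3, 0.042 without OE replicate 2 and -0.000039 after median centring, none of them called. Other annotated genes overlap 28.5% of the exon sequence of TRAP1 and the library kit does not mark strand, so its level is uncertain. KD and OE below name the labels of the libraries, not a measured state of TRAP1.

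The cell type was checked as well, and part of the adrenergic markers went against the neuroblastoma label, although the study's methods state that the line was authenticated. Of 13 adrenergic neuroblastoma markers, 9 had a row, 4 of these had a mean rlog level under 5, and MYCN was at 2.52 in the parental libraries. DBH, DDC, ELAVL4 and STMN2 were not analysed here. The most abundant adrenergic marker was ISL1, with a mean rlog level of 9.37 in the parental libraries, 9.20 in KD and 9.31 in OE. GATA2, GATA3 and HAND2 were expressed too, at 9.27, 7.25 and 6.36 in the parental libraries. Summed as 2 to the power of rlog, the adrenergic markers came to 1626, 1587 and 1598 in the parental libraries, 1475, 1458 and 1495 in KD, and 1492, 1578 and 1540 in OE. Both engineered groups were thus below the parental libraries in this sum. By limma 5 of the 9 were called lower and 1, MYCN (0.081, adjusted p = 0.0129), higher in KD. In OE 2 were called lower, TH and CHGB, and 0 higher (4 lower and 0 higher at an unadjusted p under 0.05). Of all genes, 26.9% were called lower and 26.9% higher in KD, and 18.0% lower and 16.9% higher in OE.

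Of the mesenchymal markers 9 of 10 were in the table and 4 of these had a mean rlog level under 5, but VIM was at 15.72 in the parental libraries. The mesenchymal sum was 58654.5, 58624.7 and 58511.8 in the parental libraries, 78914.9, 79504.2 and 78856.7 in KD, and 67141.7, 66029 and 67424.4 in OE. The groups did not overlap in this sum, which was highest in KD and intermediate in OE. VIM alone made up 92.2% of it in the parental libraries, and other genes overlap 24.6% of the exon sequence of VIM. Of the 9 markers, 3 were called higher and 1 lower in KD, and 5 higher and 0 lower in OE by limma (6 higher and 0 lower at an unadjusted p under 0.05), while 26.9% of all genes were called higher in KD and 16.9% in OE. PRRX1 had mean rlog levels of 11.70 in parental, 12.99 in KD and 12.39 in OE, and TWIST1 was higher by 0.43 in KD and 0.28 in OE. SNAI2 and LUM had another order, with differences of 0.069, not called, and -0.18 in KD and of 0.34 and 0.22 in OE. COL1A2 and COL3A1 were at 1.35 and 1.16 in the parental libraries. Epithelial markers, led by KRT18 at 12.06 in the parental libraries, had 6 of 10 in the table, with EPCAM at 2.59. Their sum was 5277 to 5338 in OE, 5784 to 5840 in the parental libraries and 5873 to 6117 in KD, so the groups were separate. KRT8 was higher by 0.39 in KD and 0.40 in OE, while CLDN4 differed by -0.57 in OE and by -0.057, not called, in KD. KRT8 and KRT18 have 51 and 68 annotated pseudogenes, so their values and this sum are uncertain. Endothelial markers, all 4 of which had a row, were led by PECAM1 and were lowest in OE, with sums of 729.9, 765.2 and 802.0, against 1007 to 1029 in the parental libraries and 1097 to 1126 in KD. KDR did not follow that order, with mean rlog levels of 8.17 in parental, 6.85 in KD and 7.33 in OE. CDH5, a defining endothelial gene, was at 0.63 in the parental libraries. Of the blood cell markers 3 of 6 had a row, CD14 was the highest, and the sum was 24.5 to 25.3 in the parental libraries, 22.7 to 23.0 in KD and 22.9 to 24.0 in OE. CD14, at a mean rlog level of 4.01 in the parental libraries, differed by -0.18 in KD and -0.13 in OE and was called lower in both by limma. Cells of another type and a shifted state of the same cells cannot be told apart in bulk RNA, nor can fewer cells and less RNA per cell. The part of these marker shifts in the results that follow was not tested.

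**Figure D1:**
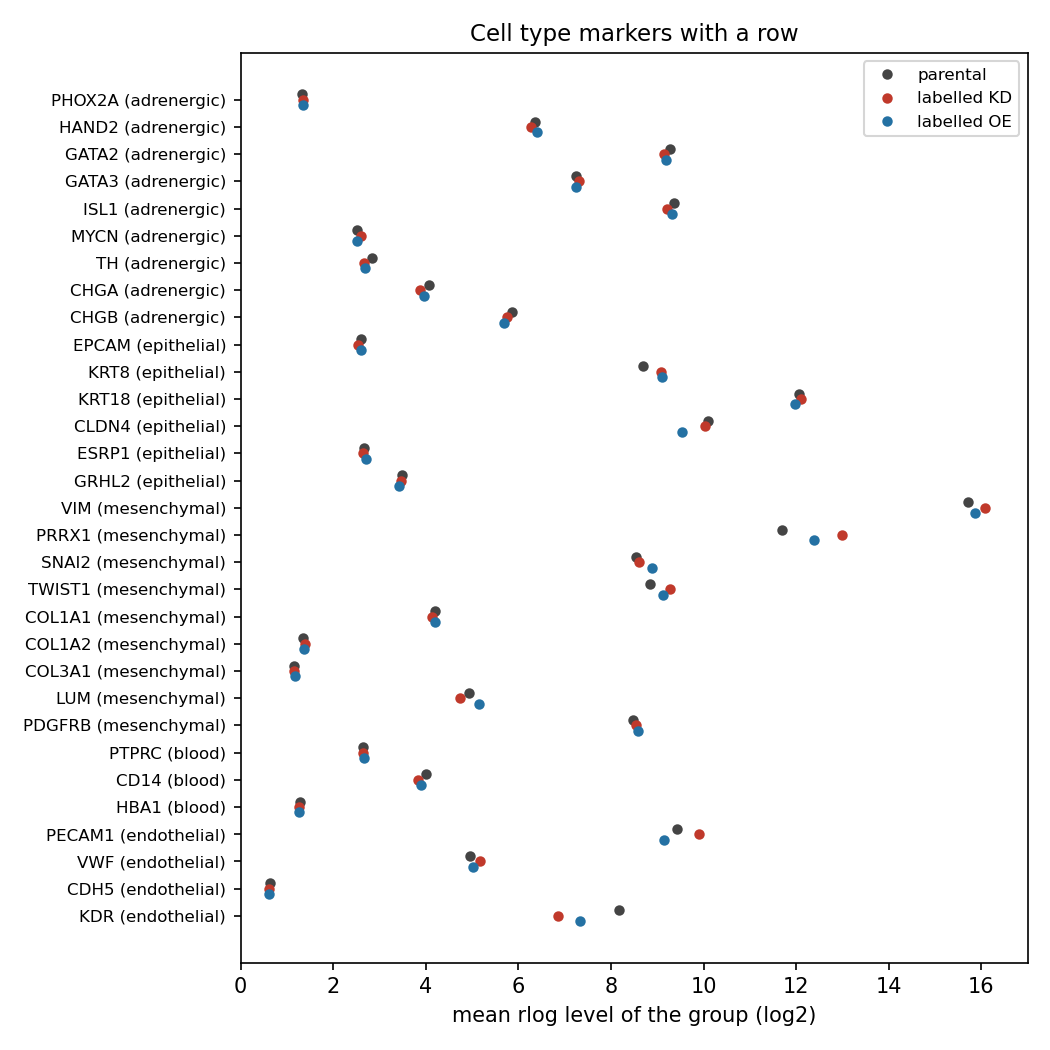
Mean rlog level (log2 scale, horizontal axis) of each cell type marker with a row, 1 point per group of 3 libraries. MYCN, TH, PHOX2A and CHGA lay under 5 in all 3 groups, whereas VIM lay above 15.

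NRF2, the protein of NFE2L2, is a transcription factor that pairs with small MAF proteins on the antioxidant response element in the promoters and enhancers of its target genes. In unstressed cells KEAP1 holds NRF2 and presents it to a CUL3 ubiquitin ligase, so that most NRF2 is degraded, and oxidants or electrophiles that modify KEAP1 let NRF2 accumulate. Because that control acts on the protein, the mRNA of NFE2L2 is known to be a poor measure of NRF2 activity, and its targets are commonly used instead. The targets make glutathione, reduce quinones, break down haem and keep thioredoxin reduced.

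In the libraries labelled KD, 6 of the 7 genes were lower than in the parental libraries and 0 were higher, by the limma test at either the adjusted or an unadjusted p of 0.05. Of all genes tested, 26.9% were called lower and 26.9% higher, and among the 9956 genes whose rlog averaged 8 or more the share called lower was 39.4%. The 6 genes, KEAP1, GCLC, GCLM, NQO1, HMOX1 and TXNRD1, had all 3 libraries labelled KD below all 3 parental libraries, an arrangement found in 29.6% of all genes and in 40.7% of those whose rlog averaged 8 or more. The median difference over the 7 genes was -0.31, and that over all genes was -0.00051.

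In the libraries labelled OE the same 6 genes were lower than in the parental libraries and 0 were higher, again by the limma test at either the adjusted or an unadjusted p of 0.05. Among all genes 18.0% were called lower and 16.9% higher, and the share called lower was 31.5% where rlog averaged 8 or more. All 3 libraries labelled OE lay below all 3 parental libraries for these 6 genes, as they did for 22.0% of all genes and for 35.5% of those whose rlog averaged 8 or more. The median difference was -0.11 for the 7 genes and 0.00039 for all genes. Both comparisons use the same parental libraries, so a chance deviation of those libraries enters both.

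Directly compared, 5 of the 7 genes were higher in OE than in KD and 0 were lower by the adjusted limma test, while 23.5% of all genes were called higher and 23.8% lower (33.3% and 34.9% where rlog averaged 8 or more). At an unadjusted p under 0.05 the limma count was 5 higher and 1 lower, the lower gene being TXNRD1. The mean level in OE lay between those in parental and KD for 6 of the 7 genes (85.7%) and for 48.0% of all genes. For the wider NRF2 genes described below the share was 54.7%. TXNRD1 was the exception among the 7, with its lowest mean in OE. NFE2L2 was among the 6, although its groups overlapped and none of its differences was called.

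**Figure D2:**
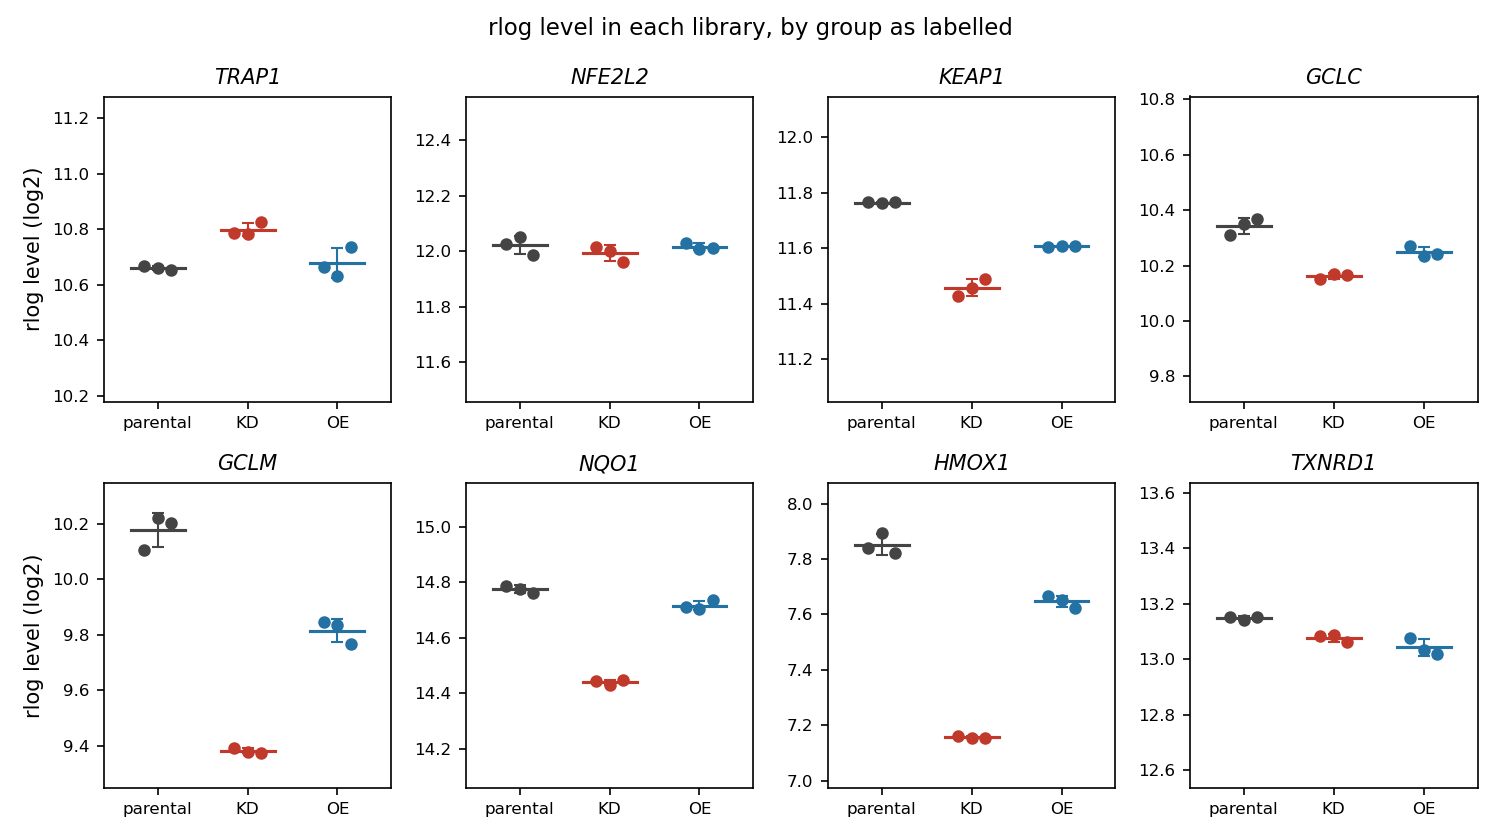
The rlog level (log2 scale, vertical axis) of TRAP1 and the 7 NRF2 genes in each of the 9 libraries, with 1 point per library, a horizontal line at the group mean and bars of 1 SD (n = 3). All panels span the same height, and the KD points of GCLM (9.37 to 9.39) and HMOX1 (7.15 to 7.16) lie farthest below their parental points.

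NFE2L2 (ENSG00000116044, chromosome 2 from 177218667 to 177392756 on the minus strand of GRCh38) encodes NRF2 itself. Its rlog level was 12.03, 12.05 and 11.99 in the parental libraries, 12.02, 12.00 and 11.96 in KD, and 12.03, 12.01 and 12.01 in OE. The 3 groups overlapped, and no difference was called. The difference was -0.029 for KD minus parental (95% interval -0.069 to 0.010, adjusted p = 0.212 from limma) and -0.0069 for OE minus parental (95% interval -0.046 to 0.033, adjusted p = 0.831 from limma). Those intervals reached no lower than -0.069 and no higher than 0.033 on the shrunken scale, which bounds the mRNA and not the NRF2 protein. Leaving out 1 library moved the KD difference to between -0.047 and -0.014, never called. The OE difference changed sign, still not called, after quantile normalization (0.013) and without parental replicate 2 (0.0082). Other genes, HNRNPA3 and AGPS among them, overlap 38.4% of its exon sequence, so its level is uncertain.

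KEAP1 (ENSG00000079999, chromosome 19 from 10486125 to 10503558, minus strand) encodes the substrate adaptor that hands NRF2 to the ubiquitin ligase, and no other annotated gene overlaps its exons. It stood at an rlog level of 11.77, 11.76 and 11.77 in the parental libraries, 11.43, 11.46 and 11.49 in KD, and 11.61, 11.61 and 11.61 in OE. The 3 groups were fully separate, in the order parental, OE, KD. The difference from parental was -0.31 in KD (standard error 0.019, adjusted p = 4.9e-15 from limma) and -0.16 in OE (adjusted p = 6.2e-08 from limma). OE was above KD by 0.15 (adjusted p = 8.6e-08 from limma). With block medians of well expressed genes removed the OE difference was -0.10 and still called. The mRNA of the inhibitor was thus lower in both engineered groups, as was that of the targets described next.

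GCLC (ENSG00000001084, chromosome 6 from 53497341 to 53616970, minus strand) encodes the catalytic subunit of glutamate-cysteine ligase, which carries out the rate-limiting step of glutathione synthesis. The rlog level was 10.31, 10.35 and 10.37 in the parental libraries, 10.15, 10.17 and 10.16 in KD, and 10.27, 10.24 and 10.24 in OE. All KD libraries lay below all OE libraries, and these below all parental ones, with gaps that were small on this scale. The difference from parental was -0.18 in KD (standard error 0.025, adjusted p = 2.1e-07 from limma) and -0.093 in OE (adjusted p = 0.0036 from limma). Between OE and KD it was 0.087 (adjusted p = 0.00405 from limma). Other genes overlap 9.68% of its exon sequence, among them the antisense gene GCLC-AS1, whose reads cannot be told apart without strand.

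GCLM (ENSG00000023909, chromosome 1 from 93885199 to 93909456, minus strand) encodes the modifier subunit, which makes the ligase more efficient. Its rlog level was 10.11, 10.22 and 10.20 in the parental libraries, 9.39, 9.38 and 9.37 in KD, and 9.84, 9.83 and 9.77 in OE. The groups were separate by far more than their spread, and GCLM had the widest range of group means of the 7 genes, 0.80 in rlog. It differed from parental by -0.80 in KD (standard error 0.0305, adjusted p = 1.1e-20 from limma) and by -0.36 in OE (adjusted p = 2.2e-11 from limma), and OE was above KD by 0.43 (adjusted p = 1.0e-13 from limma). The modifier subunit thus differed by more than the catalytic one in both comparisons with parental cells, although the difference between the subunits was not tested.

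NQO1 (ENSG00000181019, chromosome 16 from 69706996 to 69726668, minus strand) encodes a quinone reductase that transfers electrons from NADH or NADPH and is a customary readout of NRF2. Its rlog level was 14.79, 14.78 and 14.76 in the parental libraries, 14.44, 14.43 and 14.45 in KD, and 14.71, 14.70 and 14.74 in OE. The KD libraries stood well apart, whereas the OE libraries lay just under the parental ones without overlap. The difference from parental was -0.33 in KD (standard error 0.011, adjusted p = 3.6e-22 from limma) and -0.059 in OE (adjusted p = 8.3e-05 from limma), with OE above KD by 0.28 (adjusted p = 1.0e-19 from limma). The OE call was lost once the median of well expressed neighbours in each 20-Mb block was removed, a step chosen after seeing the data, with a difference of -0.026 (adjusted p = 0.0837 from limma). Another annotated gene overlaps 19.4% of the exon sequence of NQO1.

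HMOX1 (ENSG00000100292, chromosome 22 from 35380361 to 35394214, plus strand) encodes haem oxygenase 1, which opens the haem ring to biliverdin, iron and carbon monoxide. The rlog level was 7.84, 7.89 and 7.82 in the parental libraries, 7.16, 7.16 and 7.15 in KD, and 7.67, 7.65 and 7.62 in OE. Each group was separate from the others, with KD lowest. HMOX1 differed from parental by -0.69 in KD (standard error 0.0395, adjusted p = 3.7e-16 from limma) and by -0.20 in OE (adjusted p = 9.4e-05 from limma). OE was above KD by 0.49 (adjusted p = 3.1e-12 from limma). HMOX1 had the lowest level of the 7 genes, where the rlog transform shrinks differences most.

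TXNRD1 (ENSG00000198431, chromosome 12 from 104215779 to 104350307, plus strand) encodes the cytosolic selenoenzyme that reduces thioredoxin. It was at an rlog level of 13.15, 13.14 and 13.15 in the parental libraries, 13.08, 13.09 and 13.06 in KD, and 13.08, 13.03 and 13.02 in OE. Both engineered groups lay below the parental libraries and overlapped each other. The difference from parental was -0.072 in KD (standard error 0.0155, adjusted p = 1.9e-04 from limma) and -0.11 in OE (adjusted p = 1.3e-06 from limma). That between OE and KD was -0.035 (95% interval -0.066 to -0.0029, adjusted p = 0.0675 from limma). That last difference was smaller after quantile normalization (-0.013, adjusted p = 0.547 from limma) and without OE replicate 3 (-0.022, adjusted p = 0.291 from limma). It was called when KD replicate 3 was left out (-0.043, adjusted p = 0.0427 from limma) and when OE replicate 1 was (-0.051, adjusted p = 0.0102 from limma). It was also called after each library was centred on its median (-0.041, adjusted p = 0.0307 from limma) and after block medians of all genes (-0.038, adjusted p = 0.0360 from limma) or of well expressed genes were removed (-0.047, adjusted p = 0.00999 from limma).

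**Figure D3:**
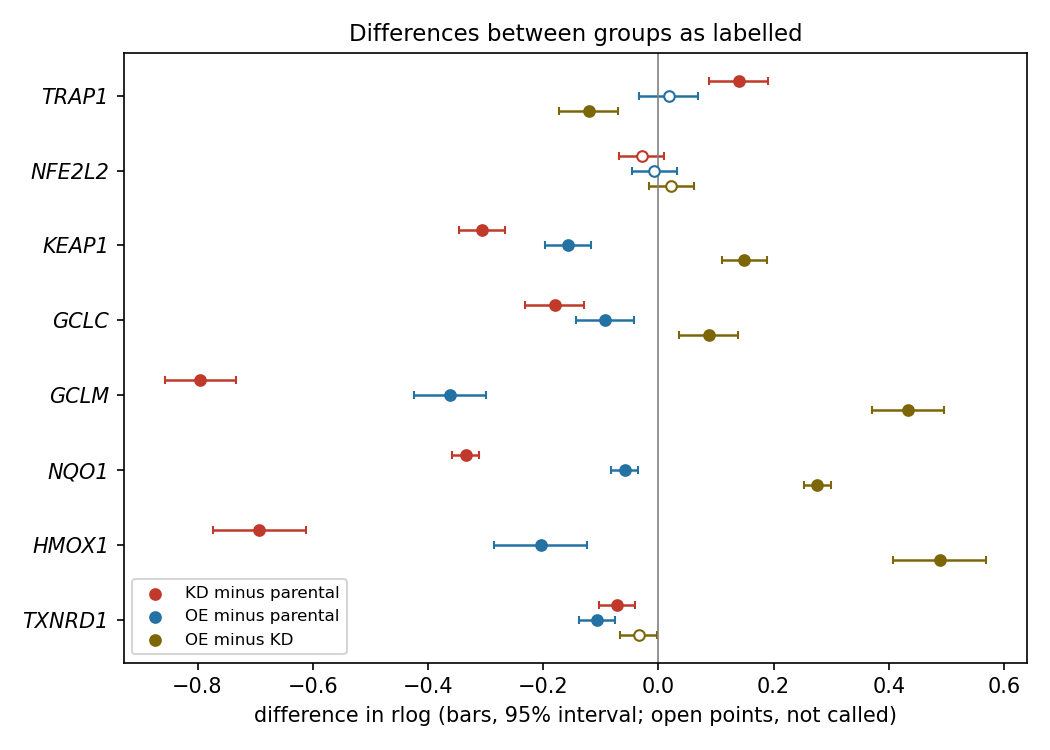
Differences in rlog between group means (horizontal axis) for TRAP1 and the 7 NRF2 genes in the 3 comparisons, with 95% intervals from limma and open points where the difference was not called. GCLM (-0.80) and HMOX1 (-0.69) lie farthest to the left for KD minus parental, and all 3 points of NFE2L2 have intervals that include 0.

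Levels can be compared between genes only per length, for which 2 to the power of rlog was divided by the length of the canonical transcript in kilobases. In the parental libraries NQO1 had by far the highest such level, 11122 ± 107 (SD, n = 3), followed by TXNRD1 with 2353 ± 11.8, NFE2L2 with 1702 ± 38.6 and KEAP1 with 1357 ± 1.92. GCLC (343.1 ± 6.76), GCLM (237.0 ± 10.1) and HMOX1 (148.7 ± 4.02) were the lowest. Each gene differed from its neighbours in this order by more than their SDs, but the order rests on the choice of length. The annotated exons of NFE2L2 cover 14975 bases against 2446 in its canonical transcript, and those of GCLC 8618 against 3785. An order by all exon bases was not computed. The order was the same in KD, where the levels per kilobase were 8818 ± 51.4 for NQO1, 136.5 ± 0.849 for GCLM and 91.9 ± 0.297 for HMOX1. It was also the same in OE, with 10677 ± 127 for NQO1, 184.4 ± 5.35 for GCLM and 129.0 ± 1.86 for HMOX1.

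The 7 genes lie on 7 chromosomes, so they share no locus. Each was set beside the genes of its own 20-Mb block whose rlog averaged 8 or more. In KD the median difference of these neighbours was 0.032 for GCLM (47 neighbours), -0.012 for HMOX1 (124), -0.0065 for NQO1 (86), -0.010 for KEAP1 (281) and 0.014 for GCLC (71). Just 2 neighbours had a lower difference than GCLM, 2 a lower one than HMOX1 and 2 a lower one than NQO1. The number was 14 of 281 for KEAP1 and 12 of 71 for GCLC. TXNRD1 and NFE2L2 stood out least, with 35 of 97 and 21 of 52 neighbours lower in KD.

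In OE the neighbours' median was -0.043 for NQO1, -0.047 for HMOX1 and -0.054 for KEAP1, and 67.4%, 64.5% and 68.7% of the neighbours of these genes had negative differences. NQO1 did not stand out in that comparison, with 37 of 86 neighbours lower than its own difference of -0.059. None of the 47 neighbours of GCLM, whose median was 0.038, had a lower difference in OE, and 10 of the 124 neighbours of HMOX1 did. For TXNRD1 the number was 15 of 97, for GCLC 14 of 71 and for KEAP1 40 of 281.

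**Figure D4:**
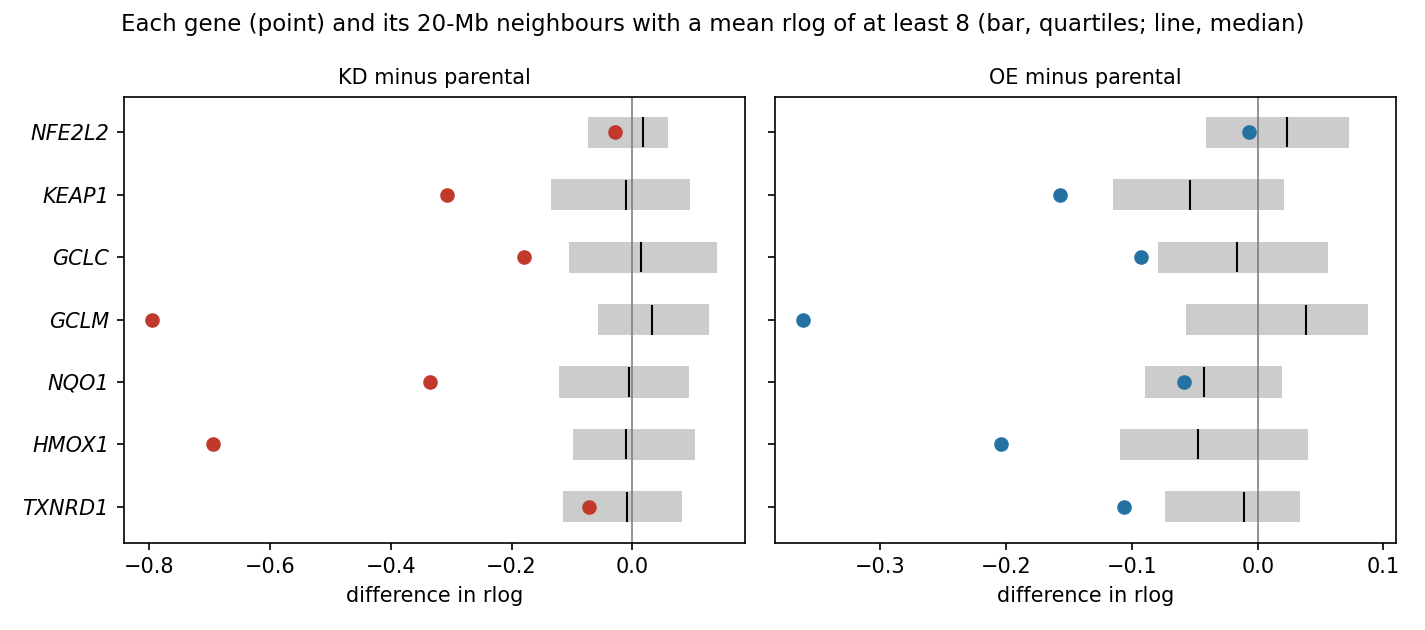
Difference in rlog (horizontal axis, with a different scale in each panel) of each NRF2 gene as a point, beside its 20-Mb neighbours whose rlog averaged 8 or more, with a bar from their lower to their upper quartile and a line at their median. In KD the point of GCLM (-0.80) lies far outside its bar and that of TXNRD1 (-0.072) inside, while in OE the point of NQO1 (-0.059) lies inside.

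Because most of these genes moved together, their promoters were searched for the core of the antioxidant response element, TGACNNNGC, on both strands, in windows of 250 bases before to 50 after each start that RefSeq gives on GRCh38.p14. At least 1 match was found in 13.3% of 35116 windows of all genes. For the listed genes, SRXN1 with its 1 window included, 4 of 10 windows held a match, and these belong to GCLM, KEAP1 and TXNRD1. TXNRD1 accounts for 2 of the 4, and the windows of NFE2L2, NQO1, GCLC and SRXN1 held no match. HMOX1 has no window in the set of starts used here, so its promoter was not searched. A match is a description of the letters and not evidence of binding, and NRF2 is known to act through enhancers outside such windows.

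GCLM, the gene with the widest range, is shown with the 250 bases before its RefSeq start (chr1:93909431-93909680, minus strand, 5′ to 3′). The match is in capitals, on the opposite strand and so as its reverse complement, 26 to 34 bases before that start. The GENCODE start of GCLM, 93909456, lies inside the printed bases. For KEAP1 the GENCODE start, 10503558, likewise differs from the RefSeq start of the window with matches.
GCLM promoter: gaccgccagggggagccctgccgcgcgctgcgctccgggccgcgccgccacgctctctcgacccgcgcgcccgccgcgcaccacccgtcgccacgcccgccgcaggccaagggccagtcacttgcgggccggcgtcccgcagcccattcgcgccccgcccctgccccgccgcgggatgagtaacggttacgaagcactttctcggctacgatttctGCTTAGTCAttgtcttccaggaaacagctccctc

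To compare the matches, each is given below 5′ to 3′ on the strand that reads TGACNNNGC, with the motif in capitals and 10 bases on each side. They lie at chr1:93909446-93909474 for GCLM, chr19:10502784-10502812 and chr19:10502807-10502835 for KEAP1, and chr12:104215670-104215698 and chr12:104286920-104286948 for TXNRD1, whose windows belong to separate starts. A further TXNRD1 match that spans the start is not printed.
GCLM: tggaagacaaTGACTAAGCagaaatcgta
KEAP1, nearer the start: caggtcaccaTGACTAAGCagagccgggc
KEAP1, farther from the start: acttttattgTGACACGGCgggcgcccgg
TXNRD1, outer start: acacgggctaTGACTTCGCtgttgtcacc
TXNRD1, inner start: agagtcagaaTGACAAAGCagaaatccac
The 9 letters in capitals are the same in GCLM and in the KEAP1 match nearer the start. Genes with and without a match were both among those lower in KD, and the difference between them was not tested.

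The wider NRF2 system was described from 61 further genes, of which 53 had a row. GPX2, GSTM3, GLRX, PRDX6, CBR3, AKR1B10, CBR1 and ALDH3A1 were not analysed here. In KD 18 of the 53 genes were called higher (34.0%) and 23 lower (43.4%), with a median difference of -0.0073, so that the wider system had no common direction. In OE 12 were called higher (22.6%) and 19 lower (35.8%), with a median of -0.00046. Between OE and KD 18 were higher and 19 lower. Among all genes whose rlog averaged 8 or more, the shares called were 36.4% higher and 39.4% lower in KD and 25.2% higher and 31.5% lower in OE, close to those of this list.

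Of the 13 regulators of NRF2, 6 were called lower and 2 higher in KD, and 8 lower and 1 higher in OE, while 39.4% and 31.5% of the genes whose rlog averaged 8 or more were called lower. MAFF and MAFK, small MAF partners of NRF2, had differences of -0.35 and -0.15 in KD and of -0.33 and -0.28 in OE. NFE2L3, a relative of NFE2L2, was at mean rlog levels of 9.92 in parental, 9.40 in KD and 9.72 in OE, differences of -0.53 and -0.20 from parental. Other genes overlap 28.05% of the exon sequence of NFE2L3 and 18.1% of that of MAFK. GSK3B, a kinase that marks NRF2 for degradation by a route without KEAP1, was higher by 0.36 in KD and by 0.063 in OE, but the OE call was lost after block medians of well expressed genes were removed (0.023, adjusted p = 0.251 from limma).

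Of the other genes of glutathione synthesis and transfer, 6 of 7 were called higher in KD and 0 lower, and in OE 4 higher and 0 lower by limma, with 0 lower at an unadjusted p under 0.05 in both. Among the genes whose rlog averaged 8 or more, 36.4% and 25.2% were called higher. MGST1, a membrane-bound glutathione transferase, rose from a mean rlog level of 9.94 to 10.94 in KD, the largest difference of the wider list (1.0, adjusted p = 3.7e-25 from limma), and was at 10.04 in OE. GSTP1, another transferase, was higher by 0.24 in KD and by 0.13 in OE. GSTA4, which conjugates products of lipid peroxidation, was higher by 0.15 in KD and by 0.40 in OE.

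Both genes of the thioredoxin and peroxiredoxin list with a row were called lower in both engineered groups. Where rlog averaged 8 or more, 39.4% of all genes were called lower in KD and 31.5% in OE. TXN, the substrate of TXNRD1, differed from parental by -0.59 in KD and -0.17 in OE, and PRDX1, which thioredoxin serves, by -0.28 and -0.058. TXN lies on chromosome 9 in a block where 91.1% of 45 neighbours had negative differences in KD, with a median of -0.36. TXN has 7 annotated pseudogenes, and other genes overlap 29.8% of the exon sequence of PRDX1.

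Of the 6 genes of quinone, carbonyl and epoxide reduction or conjugation, 5 were called lower in KD and 4 in OE, and 0 were higher by limma at either the adjusted or an unadjusted p of 0.05. Where rlog averaged 8 or more, 39.4% and 31.5% of all genes were called lower. The aldo-keto reductase AKR1C2 fell from a mean rlog level of 11.23 to 10.34 in KD (-0.89, adjusted p = 7.1e-25 from limma) and differed by -0.35 in OE. AKR1C1 differed by -0.77 in KD and -0.30 in OE. These 2 paralogs are near-identical, so their reads could be split between them and each value is uncertain. Both lie on chromosome 10 in a block where 70.0% of 50 neighbours had negative differences in KD, with a median of -0.13.

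NADPH supply was mixed, with 3 genes called higher and 1 lower of 6 in KD, and 2 higher and 0 lower in OE by limma (3 and 1 at an unadjusted p under 0.05). Where rlog averaged 8 or more, 36.4% of all genes were called higher and 39.4% lower in KD, and 25.2% and 31.5% in OE. Malic enzyme ME1 was higher by 0.36 in KD and 0.19 in OE, and IDH1, the cytosolic isocitrate dehydrogenase, by 0.15 and 0.13. TKT, the transketolase of the pentose phosphate pathway, had a difference of -0.26 in KD but lies on chromosome 3 in a block where 94.9% of 137 neighbours had negative differences. Its difference turned to 0.046 (adjusted p = 0.00166 from limma) after block medians of well expressed genes were removed, a step chosen after seeing the data.

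Among the 6 haem and iron genes 3 were called higher and 3 lower in KD, and 3 higher and 1 lower in OE. The shares among all genes whose rlog averaged 8 or more were 36.4% higher and 39.4% lower in KD, and 25.2% and 31.5% in OE. The ferritin heavy chain FTH1 differed by -0.45 in KD and -0.10 in OE, whereas the light chain FTL was higher by 0.12 and 0.19. FTH1 and FTL have 25 and 16 annotated pseudogenes, and other genes overlap 63.2% of the exon sequence of FTH1, so both values are uncertain. The biliverdin reductase BLVRA, which acts on the product of HMOX1, was higher by 0.29 in KD and by 0.094 in OE, and the OE call was lost without OE replicate 2 (0.072, adjusted p = 0.0621 from limma). BLVRB differed by -0.12 in KD and by 0.16 in OE.

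Export pumps had 2 called higher and 2 lower of 5 in KD, and 1 higher and 1 lower in OE. Where rlog averaged 8 or more, 36.4% of all genes were called higher and 39.4% lower in KD, and 25.2% and 31.5% in OE. ABCC2 and ABCC4 were higher in KD by 0.17 and 0.16, and ABCC1 differed by -0.069 in KD and 0.068 in OE. The OE difference of ABCC1 was not called after median centring (0.050, adjusted p = 0.0525 from limma). That of ABCC4, -0.042 and not called, was called after median centring (-0.060, adjusted p = 0.0243 from limma). It was also called after block medians of well expressed genes were removed (-0.061, adjusted p = 0.0193 from limma). ABCC3 had a difference of -0.089 in OE, and its value of 0.0041 in KD was not called.

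Of the 8 other targets, 4 were called lower and 2 higher in KD, and 3 lower and 1 higher in OE. Where rlog averaged 8 or more, 39.4% of all genes were called lower and 36.4% higher in KD, and 31.5% and 25.2% in OE. OSGIN1, a growth inhibitor induced by oxidative stress, differed by -0.25 in KD and -0.13 in OE, and the OE call was lost after block medians of well expressed genes were removed (-0.063, adjusted p = 0.204 from limma). TRIM16 was higher by 0.24 in KD, with a value of -0.00046 in OE that was not called, and it has a near-identical copy in TRIM16L, while other genes overlap 28.7% of its exon sequence. NR0B1, at a mean rlog level of 3.79 in the parental libraries, was higher by 0.17 in OE. UCHL1, near the floor of the scale at 0.84 in the parental libraries, was not called in KD or in OE.

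**Figure D5:**
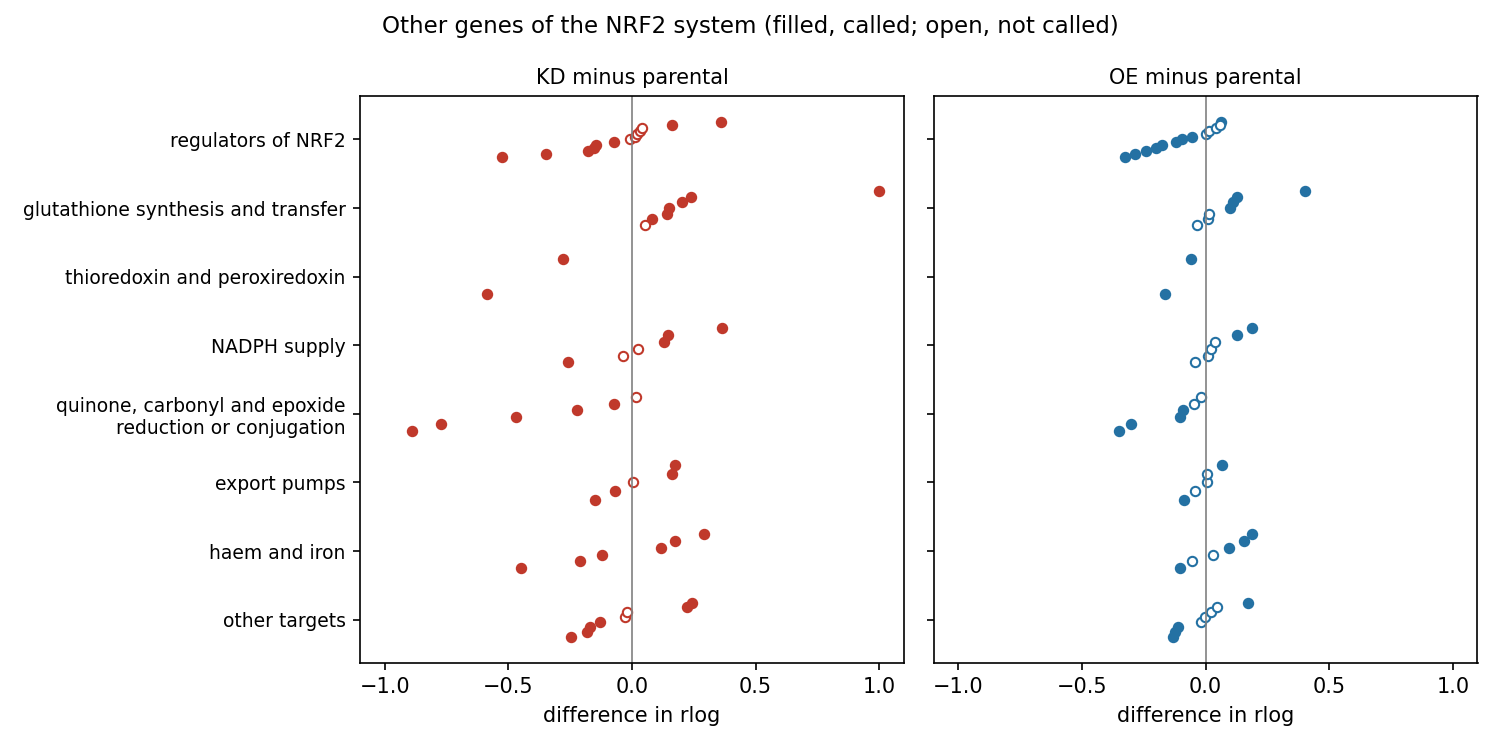
Difference in rlog (horizontal axis) of each of the 53 further genes of the NRF2 system, by list, for KD minus parental (left) and OE minus parental (right), with filled points for called genes and open points for the others. The glutathione list has 6 called points above 0 in KD and 0 below, and the quinone, carbonyl and epoxide list has 5 called points below 0 and 0 above.

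The genes whose profile over the 9 libraries was most like that of GCLM, after each was centred on its own mean, were AKR1C1, TFRC and PMEPA1, with root mean square distances in rlog of 0.040, 0.044 and 0.050 among named genes whose rlog averaged 8 or more. TFRC, the transferrin receptor, had mean levels of 13.91 in parental, 13.19 in KD and 13.55 in OE. PMEPA1 had 13.97, 13.18 and 13.68.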

How the data were processed

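The libraries were made from total RNA with a kit that does not mark strand. The authors used cutadapt for trimming, HISAT2 for alignment to GRCh38 and featureCounts for gene counts, and dropped genes with fewer than 10 reads in all. The deposited values are rlog values on the log2 scale, and DESeq2 is among the tools that the submitters name. Versions and the gene annotation are not given in the sources used here.

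Of the 22290 gene IDs, 22195 were matched to the annotation and 18433 had a symbol. Positions and lengths came from GENCODE release 44 on GRCh38. Differences in rlog between the 3 groups were tested in 1 fit over all 9 libraries with limma 3.58.1 in R 4.3.3 (variance trend, two-sided, Benjamini-Hochberg over 22290 genes, threshold 0.05), a step tested on simulated data. From each of the 8 wider NRF2 lists the 2 called genes with the largest difference in KD and in OE were named. From each marker list (adrenergic, epithelial, mesenchymal, blood and endothelial) the most abundant gene was named. Other markers, and UCHL1 of the wider lists, were named after their values were seen. Of the adrenergic list as first written, 2 genes are not reported here. Members and lists were chosen with earlier results of these data known. Alternatives changed the variance model, the libraries fitted, the filter on low values, the scaling, the neighbours removed and the size of difference required.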

Additional observations from a re-analysis of the deposited data

How the results depend on the processing

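The 21 results for the 7 NRF2 genes were recomputed under 19 alternatives, and 378 of 399 values kept their side of the threshold, 16 lost the call, 5 gained it and 0 called ones reversed. NFE2L2 in OE, never called, ranged from -0.026 to 0.013. With an absolute difference over 0.5 required, 15 of those calls were lost, and the counts fell to 1110 genes, 2 NRF2 genes (GCLM and HMOX1) and 5 wider genes in KD, to 200, 0 and 0 in OE, and to 793, 0 and 2 between OE and KD, while the TRAP1 differences of 0.139 in KD and -0.121 between OE and KD did not pass. This follows from the size rule on a shrunken scale. The remaining loss was NQO1 in OE (-0.026), and the 5 gains were TXNRD1 between OE and KD.

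After removal of the block median (20 Mb) of genes whose rlog averaged 8 or more, an alternative chosen after seeing the data, TRAP1 in OE was 0.064 and passed the test, the OE split was 4908 higher and 3708 lower, and TKT reversed to 0.046 in KD and, not called, -0.020 between OE and KD. The cause was not tested. Median centring changed the split of called genes in OE from 3762 higher and 4002 lower to 2963 and 5212, and that of the NRF2 genes between OE and KD from 5 and 0 to 5 and 1.

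Same-numbered libraries did not deviate together (correlations of -0.046 to 0.10), so the numbers were not taken to pair them. With a replicate block 12015 genes were called in KD, 7854 in OE and 10623 between OE and KD, with 6, 6 and 5 NRF2 genes. Without each library in turn, the KD count was 11106 to 12030 and the OE count 6857 to 7762, and 6 NRF2 genes passed in each of these comparisons. Between OE and KD the count was 9636 to 10575, with 5 or 6 NRF2 genes.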
